A study of Mus musculus with 12 samples.

Results

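Amino acid catabolism enzymes are the proteins with which the liver breaks down amino acids for energy, glucose and one-carbon units. The 38 genes described here were taken by symbol from the deposited count tables, which list 48576 genes, and were grouped by the amino acid that each enzyme helps to break down. All 38 were found, and all 38 passed the filter on low counts. The data are RNA-seq read counts from 12 mouse livers of 2 models of liver overgrowth.

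In the YAP model, every mouse carried Col-TRE-YAPS127A, a doxycycline-responsive transgene for a YAP mutant that escapes inhibition by the Hippo kinases, together with Rosa26-LSL-rtTA, a Cre-dependent doxycycline-controlled activator. AAV-TBG-Cre, in which the hepatocyte promoter TBG drives Cre, was given at 8 to 10 weeks of age. Doxycycline then induced YAPS127A for 2 weeks (n = 2 livers) or for 4 weeks (n = 3), and in YAP controls of this genotype it was not induced (n = 2). In the MYC model, MYC livers carried LAP-tTA, a liver-specific activator that is active without doxycycline, and TRE-MYC (n = 3). Pregnant mothers lost their doxycycline at about embryonic day 8, and the offspring's livers were collected 4 weeks after birth. MYC controls carried LAP-tTA without TRE-MYC on an equal schedule of doxycycline (n = 2). The 2 models thus differ in age and in the length of induction, and nothing in the labels says whether livers came from separate litters, so p-values measure the spread between these livers.

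Hepatocytes hold most of the body's capacity to degrade amino acids other than the branched-chain ones, whose first transamination takes place largely in muscle. Each pathway removes or transfers the amino group and then oxidises the carbon chain, mostly in mitochondria. The products enter glycolysis, the citric acid cycle, ketone body formation or the folate pool, and inherited loss of many of these enzymes causes an amino acid disorder, such as tyrosinaemia with loss of FAH or homocystinuria with loss of CBS. The hepatocyte transcription factor HNF4A and hormones such as glucocorticoids and glucagon are known to control many of the genes.

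Promoter sequences from RefSeq on GRCm38.p6, 250 bases before to 50 bases after a gene's start, were matched for 31 of the 38 genes (33 promoters). The 7 printed here were picked with the expression values known. Hal, Amdhd1 and Uroc1 are shown because these 3 histidine enzymes were low together, and Cbs because it fell in both models. Hgd and Prodh2 are shown because they fell at both YAP times. Gpt2 was the member that rose after 2 weeks of YAP. Others that are not printed met these reasons too: Fah, Kmo and Kynu fell in both models, and Kmo, Haao, Aldh4a1, Amt and Mccc1 at both YAP times. The 7 therefore do not stand for the rest. The windows are chr10:93488518-93488817 for Hal, chr10:93539984-93540283 for Amdhd1, chr6:90333039-90333338 for Uroc1, chr17:31637156-31637455 for Cbs, chr16:37579903-37580202 for Hgd, chr7:30493408-30493707 for Prodh2 and chr8:85492326-85492625 for Gpt2. Amdhd1 and Cbs lie on the minus strand and the others on the plus strand. Each sequence runs 5′ to 3′ on the gene's strand, and capitals mark a match to any of 3 motifs on either strand.
Hal: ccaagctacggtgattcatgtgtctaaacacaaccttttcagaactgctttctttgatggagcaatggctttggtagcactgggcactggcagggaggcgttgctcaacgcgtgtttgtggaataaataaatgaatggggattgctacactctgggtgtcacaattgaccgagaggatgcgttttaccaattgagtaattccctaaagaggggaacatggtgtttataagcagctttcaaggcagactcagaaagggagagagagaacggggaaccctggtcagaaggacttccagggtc
Amdhd1: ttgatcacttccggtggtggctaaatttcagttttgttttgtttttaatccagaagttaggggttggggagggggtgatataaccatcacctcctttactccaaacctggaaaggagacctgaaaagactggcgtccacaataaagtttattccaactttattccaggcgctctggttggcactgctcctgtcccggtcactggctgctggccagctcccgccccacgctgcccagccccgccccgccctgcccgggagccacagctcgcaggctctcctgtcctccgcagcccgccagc
Uroc1: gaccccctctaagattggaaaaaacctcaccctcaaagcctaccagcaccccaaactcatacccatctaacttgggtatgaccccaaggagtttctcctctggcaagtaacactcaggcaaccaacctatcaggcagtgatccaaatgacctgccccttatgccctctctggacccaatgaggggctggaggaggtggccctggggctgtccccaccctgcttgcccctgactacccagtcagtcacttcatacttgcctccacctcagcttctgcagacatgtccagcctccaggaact
Cbs: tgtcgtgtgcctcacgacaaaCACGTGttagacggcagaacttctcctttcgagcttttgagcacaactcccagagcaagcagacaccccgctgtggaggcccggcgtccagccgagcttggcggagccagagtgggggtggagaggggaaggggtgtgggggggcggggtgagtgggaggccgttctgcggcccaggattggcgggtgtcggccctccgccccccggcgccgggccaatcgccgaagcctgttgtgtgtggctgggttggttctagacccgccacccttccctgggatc
Hgd: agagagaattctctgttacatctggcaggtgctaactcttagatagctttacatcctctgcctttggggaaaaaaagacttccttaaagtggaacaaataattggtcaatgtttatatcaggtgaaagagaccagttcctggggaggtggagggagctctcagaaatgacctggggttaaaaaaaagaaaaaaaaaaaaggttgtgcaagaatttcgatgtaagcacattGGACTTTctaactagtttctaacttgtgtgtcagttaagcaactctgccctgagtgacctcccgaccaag
Prodh2: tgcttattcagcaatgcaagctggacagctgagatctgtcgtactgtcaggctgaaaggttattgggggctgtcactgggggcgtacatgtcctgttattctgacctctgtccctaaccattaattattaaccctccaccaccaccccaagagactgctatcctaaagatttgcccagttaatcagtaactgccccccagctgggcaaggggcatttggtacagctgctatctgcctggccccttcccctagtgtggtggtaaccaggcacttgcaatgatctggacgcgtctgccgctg
Gpt2: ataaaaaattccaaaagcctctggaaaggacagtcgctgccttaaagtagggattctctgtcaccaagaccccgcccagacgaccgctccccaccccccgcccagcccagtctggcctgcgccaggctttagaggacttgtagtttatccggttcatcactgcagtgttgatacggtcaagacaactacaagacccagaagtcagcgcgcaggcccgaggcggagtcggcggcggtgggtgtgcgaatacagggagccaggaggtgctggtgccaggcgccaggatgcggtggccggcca
The motifs were CACGTG, the E-box bound by MYC with MAX, GGAATG, bound by the TEAD partners of YAP, and AAAGTCC, the core of HNF4A sites. CACGTG is its own reverse complement, and the others were searched on both strands. CACGTG was in 6.06% of the members' promoters (Cbs and Mccc2) and in 7.15% of all 32851 promoters in the table. GGAATG was in 12.1% of the members' promoters (Fah, Gldc, Prodh and Tdo2) and in 14.7% of all. AAAGTCC was in 3.03% (Hgd) and in 4.21% of all. These are matches of letters in 300-base windows and not measured binding sites. Hal and Amdhd1, which act at different steps of histidine breakdown, are neighbours on chromosome 10, with 4033 bases between Hal (93488768 to 93519304, plus strand) and Amdhd1 (93523338 to 93540033, minus strand). Gene coordinates throughout are those of GENCODE vM21 on GRCm38.

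Libraries held 12511170 to 17690798 counts, of which the 38 genes took between 0.523% and 1.29%. Levels are CPM, the read count of a gene relative to the library total after TMM scaling, and changes are log2 fold changes ± SE. Several features of the libraries moved with the groups. Xist was between 1748 and 2390 CPM in 2-week YAP replicate 2 and in all 3 livers at 4 weeks of YAP, and at most 10.3 CPM in the other 8 libraries, so at 4 weeks sex and induction cannot be told apart. The labels call the cells hepatocytes, whereas RNA was made from liver, and markers of other cells were present. The sum of 10 monocyte and macrophage markers was 354 and 429 CPM at 2 weeks of YAP, 281, 286 and 266 CPM at 4 weeks and 61.0 and 51.4 CPM in YAP controls. It was 197, 298 and 234 CPM in MYC livers and 42.6 and 44.9 CPM in MYC controls. In the order of the 3 comparisons with controls (2 weeks, 4 weeks, MYC), 10, 10 and 7 of these 10 markers rose, and 1 fell with MYC. Of 10 hepatocyte markers 6, 8 and 5 fell. Among all tested genes 15.1%, 18.1% and 9.76% rose and 12.7%, 15.7% and 8.56% fell. Fewer hepatocytes and less RNA per hepatocyte cannot be told apart in such samples. Of 10 cholangiocyte markers, 3 rose at 2 weeks and 5 at 4 weeks of YAP, with a sum of 762 and 1384 CPM at 2 weeks, 587, 3305 and 3385 CPM at 4 weeks and 260.3 and 311 CPM in YAP controls. Spp1 was the largest part of it in the induced livers, at 466 and 996 CPM at 2 weeks and 305, 2737 and 2724 CPM at 4 weeks. The log2 fold change was negative for 4 of the 10 markers at 2 weeks and for 2 at 4 weeks, and 0 of them passed as lower. Of 10 erythroid markers 5 rose with MYC, with a sum of 361, 2070.0 and 996 CPM in MYC livers and 98.5 and 122 CPM in MYC controls. Genes of the mitochondrial genome took 13.9% and 10.19% of counts at 2 weeks of YAP, 7.67% to 11.7% at 4 weeks and 19.3% and 19.6% in YAP controls, and they took 15.1% to 20.8% in MYC livers and 15.02% and 15.8% in MYC controls. Skeletal muscle markers summed to 506 and 560 CPM at 2 weeks of YAP and to at most 23.2 CPM in any other library.

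Within groups, some libraries stood apart. Replicate 1 at 4 weeks of YAP had a hepatocyte marker sum of 79350.0 CPM against 44340.0 and 41580.0 CPM in replicates 2 and 3, the lowest cholangiocyte marker sum and the highest level of its group for 24 of the 38 enzymes. Alb was the largest part of that hepatocyte sum, at 47400 CPM against 19320 and 19270 CPM. Apoa2 (183 against 866 and 576 CPM) and Fga (2341 against 3666 and 2808 CPM) went the other way, so the sum does not stand for each marker. MYC replicate 1 had a hepatocyte sum of 64270.0 CPM against 51590.0 and 38330.0 CPM, the lowest erythroid marker sum and the highest level of its group for 33 of 38. At 2 weeks of YAP, replicate 1 was above replicate 2 for 37 of 38. Where a call against controls turned for a member without 4-week YAP replicate 1, MYC replicate 1 or 2-week YAP replicate 2, the value without that library is given. For the comparisons between the YAP times and between the models, only counts and ranges are given. The part of these libraries, and of the marker, mitochondrial and sex differences, in the results below was not tested otherwise.

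Most of the 38 enzymes had lower levels in both models than in the controls. After 2 weeks of YAP 12 fell and 1 rose, after 4 weeks 24 fell and 0 rose, and in MYC livers 5 fell and 1 rose. Among all 17964 tested genes 12.7% fell and 15.1% rose at 2 weeks, 15.7% fell and 18.1% rose at 4 weeks, and 8.56% fell and 9.76% rose in MYC livers, which is 27.8%, 33.8% and 18.3% called either way. The members' median log2 fold change was -1.01 at 2 weeks (0.102 over all genes), -1.29 at 4 weeks (0.178) and -0.64 in MYC livers (0.0203). Beside the count of 0 that rose at 4 weeks in edgeR, 0 rose at an unadjusted p under 0.05 and 0 in DESeq2. Livers of the compared groups did not overlap for 33 members at 2 weeks, 32 at 4 weeks and 26 with MYC, where 66.6%, 59.9% and 53.0% of all tested genes did not overlap.

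Scaling by total counts moved the median of all genes by 0.536 at 2 weeks, 0.735 at 4 weeks and 0.414 with MYC (log2), and the changes here are relative to the typical gene. Under that scaling 10 members fell and 2 rose at 2 weeks, 11 fell and 2 rose at 4 weeks, and 5 fell and 2 rose with MYC, where 5.45%, 4.99% and 4.14% of all genes fell and 29.1%, 43.8% and 18.2% rose. The calls lost were Sds and Mccc1 at 2 weeks and Fah, Kynu, Gcsh, Prodh2, Uroc1, Ftcd, Bckdha, Dbt, Ivd, Mccc1, Aass, Agxt and Got1 at 4 weeks. The members' median stayed negative at -0.51, -0.57 and -0.29, while that of all genes was 0.638, 0.912 and 0.434. Both YAP times are set against the same 2 control livers.

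Leaving out 2-week YAP replicate 2, the 1 of that group with high Xist, left 6 members that fell (Hgd, Haao, Prodh2, Aldh4a1, Amdhd1 and Cbs), against 5.37% of 19254 genes, and 0 that rose, against 7.33%. The remaining liver is then assumed to vary like the other groups. The calls lost were Kmo, Sds, Amt, Hal, Uroc1, Mccc1 and Gpt2 (adjusted p = 0.054, 0.18, 0.0525, 0.0657, 0.139, 0.0601 and 0.0625). Without 4-week YAP replicate 1, 24 members again fell and 0 rose, where 16.4% of all genes fell and 18.5% rose. Gstz1, Sds and Bhmt then passed (adjusted p = 0.000446, 0.00694 and 0.00148), while Agxt, Got1 and Gnmt did not (adjusted p = 0.0693, 0.0734 and 0.0508). Without YAP control replicate 1 the number that fell at 4 weeks was 12, against 8.56% of all genes, and without YAP control replicate 2 it was 11, against 8.64%. Without MYC replicate 1, 20 members fell and 1 rose, where 12.1% of 17845 genes fell and 11.4% rose. That liver was the highest of its group for 33 of the 38, so leaving it out lowers their MYC mean in any case.

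**Figure D1:**
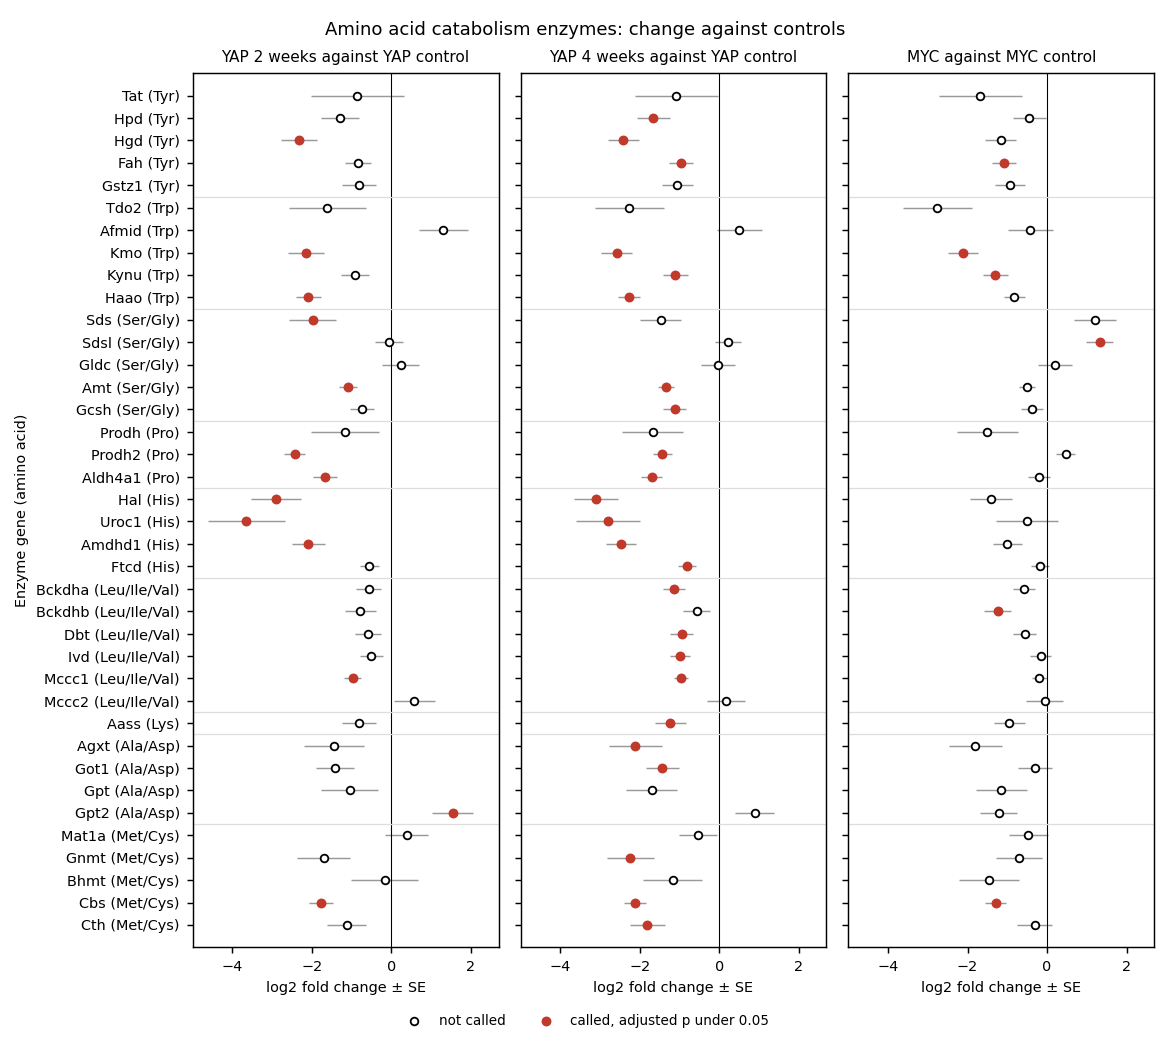
Log2 fold change ± SE (x axis) of each of the 38 enzyme genes (y axis, with the amino acid each breaks down) after 2 weeks of YAP, after 4 weeks of YAP and in MYC livers, each against its own controls. Filled points passed an adjusted p of 0.05: 13 at 2 weeks, 24 at 4 weeks and 6 with MYC, and nearly all of them lie left of 0.

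Levels per kilobase of annotated exon set genes of unlike length beside each other. The length is that of all annotated exons of a gene, which can exceed that of its transcript in liver, so the order is approximate. Gnmt, the glycine N-methyltransferase that uses up excess methyl groups, led in YAP controls at 857 ± 27.0 CPM per kb (SD, n = 2), and Hpd, Tat and Mat1a followed at 707 ± 21.6, 516 ± 282 and 438 ± 28.5 CPM per kb. The wide spread of Tat overlaps that of its neighbours in this order. After 2 weeks of YAP, Mat1a led at 573 ± 285 CPM per kb (n = 2), and after 4 weeks it led at 304 ± 79.3 CPM per kb (n = 3), with Gnmt at 182 ± 46.2 CPM per kb. In MYC livers Mat1a was at 355 ± 249 CPM per kb (n = 3) and Hpd at 312 ± 197 CPM per kb. In MYC controls Tat was at 531 ± 129 CPM per kb (n = 2) and Mat1a at 493 ± 68.9 CPM per kb. Mccc1 was lowest in every group, at 1.75 to 3.43 CPM per kb. Its annotated exons span 10952 bases, the most of any member, and this place in the order depends on that length. By mean CPM without regard to length, Sdsl was below Mccc1 in every group.

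Histidine breakdown had the most negative median of the groups of enzymes under YAP, with log2 fold changes of -2.50 at 2 weeks and -2.63 at 4 weeks. Of its 4 genes 3 fell at 2 weeks and all 4 at 4 weeks, where 12.7% and 15.7% of all genes fell. HAL, histidine ammonia-lyase, makes urocanate, UROC1 (urocanate hydratase) hydrates it, AMDHD1 (imidazolonepropionase) opens the ring, and FTCD passes the remaining one-carbon group to folate. Hal had 90.1 and 35.6 CPM at 2 weeks of YAP, 37.5, 69.97 and 58.1 CPM at 4 weeks and 496 and 448 CPM in YAP controls, so every induced liver was below both controls. Hal fell by 2.91 ± 0.63 on the log2 scale at 2 weeks (adjusted p = 0.00824) and fell by 3.10 ± 0.55 at 4 weeks (adjusted p = 0.00248). The 2-week call was lost without replicate 2 (adjusted p = 0.0657). Uroc1 had 48.7 and 15.3 CPM at 2 weeks of YAP, 8.45, 104 and 60.7 CPM at 4 weeks and 402 and 399 CPM in YAP controls. Its livers at 4 weeks spread from 8.45 to 104 CPM and the lowest level was in replicate 1. That liver had the highest hepatocyte marker sum of its group, but the lowest Apoa2 and Fga. The fall was 12.5-fold at 2 weeks (adjusted p = 0.0222) and 6.92-fold at 4 weeks (adjusted p = 0.0261), calls lost in 5 of 9 and 7 of 11 alternatives. Amdhd1 had 69.9 and 30.1 CPM at 2 weeks of YAP, 42.7, 43.6 and 28.1 CPM at 4 weeks and 227 and 197 CPM in YAP controls, again without overlap. Amdhd1 fell by 2.08 ± 0.42 on the log2 scale at 2 weeks (adjusted p = 0.00516) and fell by 2.47 ± 0.37 at 4 weeks (adjusted p = 0.000875). Ftcd differed least of the 4, at 217 and 154 CPM at 2 weeks of YAP, 191, 124 and 150.0 CPM at 4 weeks and 291 and 251 CPM in YAP controls. It passed at 4 weeks (adjusted p = 0.0173), a call lost in 5 of 11 alternatives, and not at 2 weeks (adjusted p = 0.119). Whether the Ftcd effect differed between the times was covered by the comparison of 4 with 2 weeks, in which it did not pass (adjusted p = 0.843).

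With MYC none of the 4 histidine genes passed in edgeR, where Hal and Amdhd1 had an unadjusted p under 0.05 and DESeq2 called Hal. Hal had 158, 55.03 and 45.7 CPM in MYC livers and 228 and 229 CPM in MYC controls (log2 fold change -1.40 ± 0.53, adjusted p = 0.095). Amdhd1 had 135, 76.7 and 66.3 CPM in MYC livers and 193 and 177 CPM in MYC controls (log2 fold change -1.00 ± 0.37, adjusted p = 0.082). Both groups were apart for these 2 genes, with MYC replicate 1 highest. Without that liver Hal fell by 2.18 on the log2 scale (adjusted p = 0.00436) and Amdhd1 by 1.37 (adjusted p = 0.0173). Uroc1 had 307, 178 and 306 CPM in MYC livers and 389 and 357 CPM in MYC controls, and Ftcd had 263, 219 and 276 CPM in MYC livers and 313 and 263 CPM in MYC controls. Neither passed with or without that liver.

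**Figure D2:**
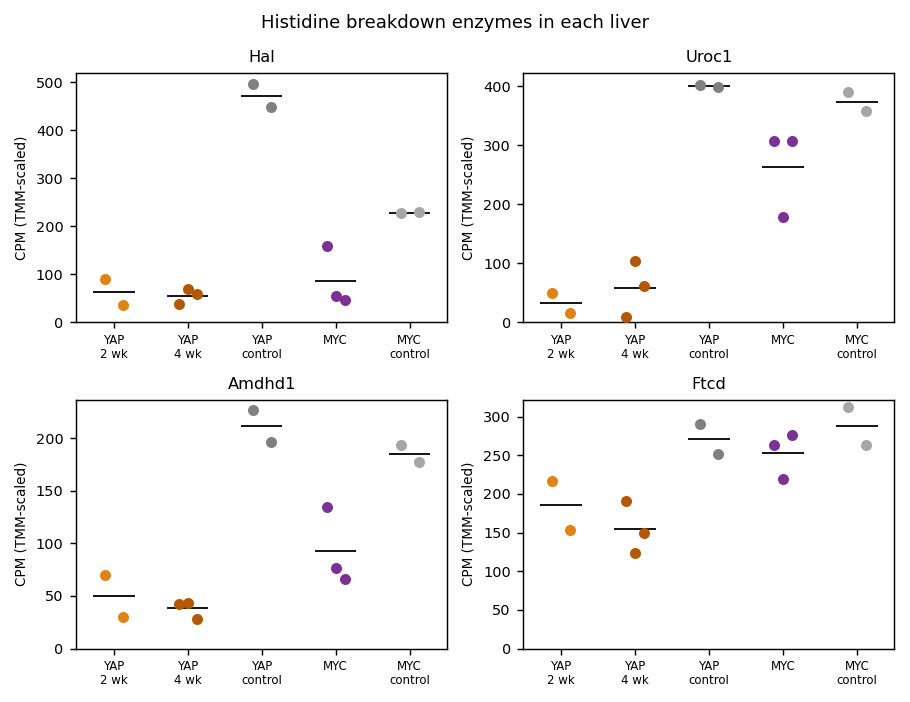
Level of the 4 histidine breakdown genes in each liver (y axis, TMM-scaled CPM; points are livers and lines are group means) for 2 weeks of YAP, 4 weeks of YAP, YAP controls, MYC and MYC controls. For Hal, Uroc1 and Amdhd1 all 5 YAP-induced livers lie far below both YAP controls, while Ftcd differs less and Uroc1 in MYC livers reaches 307 CPM.

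Of 5 tryptophan genes, 2 fell at 2 weeks of YAP, 3 at 4 weeks and 2 with MYC, and Kmo fell in all 3 comparisons. In these comparisons 12.7%, 15.7% and 8.56% of all genes fell. TDO2 opens the indole ring, AFMID releases kynurenine, KMO and KYNU hydroxylate and cleave it, and HAAO makes the precursor of quinolinate, from which NAD can be built. Kmo, on chromosome 1, 175620381 to 175662116, had 71.6 and 37.1 CPM at 2 weeks of YAP, 50.4, 37.5 and 32.6 CPM at 4 weeks and 256 and 225 CPM in YAP controls. That was 4.42-fold and 5.98-fold lower (adjusted p = 0.00577 and 0.000936), and the 2-week call was lost without replicate 2 (adjusted p = 0.054). With MYC it had 85.3, 35.6 and 37.5 CPM in MYC livers and 245 and 214 CPM in MYC controls (log2 fold change -2.12 ± 0.39, adjusted p = 0.0054). All induced livers lay below all controls in both models, and of the 6 calls with MYC this was the only one that held under every alternative tried. Haao, on chromosome 17, 83831156 to 83847963, had 86.8 and 55.1 CPM at 2 weeks of YAP, 64.7, 77.1 and 46.5 CPM at 4 weeks and 306 and 296 CPM in YAP controls. Haao fell by 2.09 ± 0.31 on the log2 scale at 2 weeks (adjusted p = 0.000856) and fell by 2.26 ± 0.27 at 4 weeks (adjusted p = 0.000218), with the smallest p of all members at 4 weeks. In the MYC model Haao did not pass, at 187, 109.9 and 160.2 CPM in MYC livers and 258 and 282 CPM in MYC controls (log2 fold change -0.83 ± 0.27, adjusted p = 0.0539), although the livers did not overlap. It fell with MYC once MYC replicate 1 was left out (log2 fold change -1.00, adjusted p = 0.0276).

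Kynu had 162 and 116 CPM at 2 weeks of YAP, 189, 79.4 and 95.8 CPM at 4 weeks and 243 and 279.9 CPM in YAP controls. It passed at 4 weeks (log2 fold change -1.10 ± 0.31, adjusted p = 0.0181) but not at 2 weeks (adjusted p = 0.0696). It fell with MYC, with 102, 84.5 and 101 CPM in MYC livers and 238 and 234 CPM in MYC controls (log2 fold change -1.30 ± 0.31, adjusted p = 0.0154). The 4-week call was lost in 5 of 11 alternatives and the MYC call in 3 of 11. Kynu and Haao were thus each below controls in all induced livers of both models. Tdo2 varied widely among livers, at 631 and 282 CPM at 2 weeks of YAP, 503, 171 and 198 CPM at 4 weeks and 1553 and 1234 CPM in YAP controls. It did not pass at either time (adjusted p = 0.247 and 0.0702). With MYC it had 442, 70.2 and 50.96 CPM in MYC livers and 1389 and 1161 CPM in MYC controls (adjusted p = 0.0559). Without MYC replicate 1 its log2 fold change was -4.39, adjusted p = 0.00108. Afmid went the other way at 2 weeks of YAP without passing. It had 53.5 and 26.2 CPM at 2 weeks of YAP, 39.1, 12.3 and 17.1 CPM at 4 weeks and 17.6 and 14.5 CPM in YAP controls (2-week log2 fold change 1.31, adjusted p = 0.141). Afmid did not pass in any comparison with controls, and 44.2% of its exon bases also belong to the gene model Gm20708, so that its counts are uncertain.

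In the tyrosine pathway 1 of 5 genes fell at 2 weeks of YAP, 3 at 4 weeks and 1 with MYC. Beside the 12.7%, 15.7% and 8.56% of all genes that fell, 1 call among 5 genes says little about the pathway. TAT removes the amino group, HPD and HGD make and open homogentisate, GSTZ1 isomerises the product, and FAH splits it to fumarate and acetoacetate. Hgd, on chromosome 16, 37580153 to 37632020, had 112 and 58.6 CPM at 2 weeks of YAP, 54.95, 109 and 75.97 CPM at 4 weeks and 388 and 465 CPM in YAP controls, so that the highest induced liver was far below the lower control. Hgd fell by 2.32 ± 0.45 on the log2 scale at 2 weeks (adjusted p = 0.00406) and fell by 2.41 ± 0.39 at 4 weeks (adjusted p = 0.00127). With MYC it had 286, 128 and 147 CPM in MYC livers and 414 and 426 CPM in MYC controls (log2 fold change -1.17 ± 0.39, adjusted p = 0.0582), apart from controls but short of the threshold. Hgd fell with MYC once that group's replicate 1 was left out (log2 fold change -1.61, adjusted p = 0.00814). Hpd averaged 615 ± 278 CPM at 2 weeks (SD, n = 2), 476 ± 37.1 CPM at 4 weeks (n = 3) and 1504 ± 45.9 CPM in YAP controls (n = 2), and fell at 4 weeks (adjusted p = 0.0112), a call lost when either YAP control was left out. With MYC it did not pass (adjusted p = 0.495), and without MYC replicate 1 its log2 fold change was -1.10, adjusted p = 0.0195.

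Fah had 499.9 and 306 CPM at 2 weeks of YAP, 474, 293 and 344 CPM at 4 weeks and 752 and 692 CPM in YAP controls. It fell at 4 weeks (log2 fold change -0.96 ± 0.30, adjusted p = 0.0297), a call lost with total-count scaling (adjusted p = 0.383). It fell with MYC too, with 414, 259 and 238 CPM in MYC livers and 715 and 581 CPM in MYC controls (log2 fold change -1.09 ± 0.30, adjusted p = 0.0283), a call lost in 4 of 11 alternatives. Gstz1, which shares 9.1% of its exon bases with Pomt2, had log2 fold changes of -0.82, -1.05 and -0.94 in the 3 comparisons and passed in none. Without 4-week YAP replicate 1 it fell at 4 weeks (log2 fold change -1.68, adjusted p = 0.000446). Tat, a classical target of glucocorticoids, had 872 and 500.2 CPM at 2 weeks of YAP, 697, 565 and 505 CPM at 4 weeks and 760.2 and 1721 CPM in YAP controls. The 2 YAP controls differed from each other by more than the livers within either induced group. In MYC livers Tat had 1056, 99.6 and 41.9 CPM, against 1057 and 1496 CPM in MYC controls, so that MYC replicate 1 lay near the controls and the other livers far below. The log2 fold change was -1.68 (adjusted p = 0.308), and without MYC replicate 1 it was -4.17, adjusted p = 0.000754.

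For serine and glycine, 2 of 5 genes fell at each YAP time, where 12.7% and 15.7% of all genes fell. With MYC 1 rose, where 9.76% of all genes rose. GLDC, AMT and GCSH belong to the glycine cleavage system, while SDS turns serine into pyruvate and SDSL is its close relative. Amt had 32.02 and 24.4 CPM at 2 weeks of YAP, 28.5, 21.3 and 21.02 CPM at 4 weeks and 58.2 and 61.5 CPM in YAP controls, with all induced livers below controls. Amt fell by 1.09 ± 0.22 on the log2 scale at 2 weeks (adjusted p = 0.00445) and fell by 1.34 ± 0.20 at 4 weeks (adjusted p = 0.000597). The 2-week call was lost without replicate 2 (adjusted p = 0.0525). Gcsh fell at 4 weeks (log2 fold change -1.12, adjusted p = 0.0109), a call lost in 3 of 11 alternatives. Gldc, whose product decarboxylates the glycine, did not pass in any comparison, at 213 and 199 CPM at 2 weeks of YAP, 293, 69.8 and 149 CPM at 4 weeks and 193 and 156 CPM in YAP controls. Amt, Gcsh and Gldc, which encode parts of 1 system, thus did not all pass together. With MYC, Amt, Gcsh and Gldc did not pass (log2 fold changes -0.51, -0.38 and 0.20).

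Sds lay on opposite sides of the controls in the 2 models. Sds had 21.9 and 16.4 CPM at 2 weeks of YAP, 7.81, 33.2 and 40.7 CPM at 4 weeks and 67.2 and 83.6 CPM in YAP controls. It fell at 2 weeks (log2 fold change -1.98 ± 0.59, adjusted p = 0.0335), a call lost in 7 of 9 alternatives, and at 4 weeks it missed the threshold (adjusted p = 0.0516). Without 4-week replicate 1 it passed (log2 fold change -1.03, adjusted p = 0.00694). With MYC, Sds had 98.8, 77.3 and 59.8 CPM in MYC livers and 36.3 and 31.9 CPM in MYC controls. Every MYC liver was above both controls, but the difference missed the threshold (log2 fold change 1.21 ± 0.54, adjusted p = 0.154). Sdsl rose with MYC, with 19.2, 14.9 and 16.7 CPM in MYC livers, against 7.42 and 6.08 CPM in MYC controls (log2 fold change 1.32 ± 0.34, adjusted p = 0.021). It was the only member to rise there. Leaving out either MYC control took the call of Sdsl away. Under YAP, Sdsl had 8.5 and 7.47 CPM at 2 weeks of YAP, 5.4, 11.3 and 12.5 CPM at 4 weeks and 7.05 and 9.55 CPM in YAP controls, overlapping its controls. Of the exon bases of Sds, 21.3% are shared with Plbd2, and the strand setting of the counting is not given in the sources used here.

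In proline and hydroxyproline breakdown, the effects of the 2 models differed for Prodh2 and Aldh4a1, and for Prodh the difference did not pass (0.17 ± 1.09 on the log2 scale, adjusted p = 0.957). PRODH oxidises proline, PRODH2 is known to oxidise hydroxyproline, which comes from collagen, and ALDH4A1 takes the product of both to glutamate or its hydroxylated form. Prodh2, on chromosome 7, 30493622 to 30513402, had 17.1 and 23.7 CPM at 2 weeks of YAP, 28.3, 50.5 and 44.1 CPM at 4 weeks and 116 and 105 CPM in YAP controls. It was 5.39-fold lower at 2 weeks (adjusted p = 0.000187) and 2.69-fold lower at 4 weeks (adjusted p = 0.00103, or 0.0588 with total-count scaling). In MYC livers it had 227, 181 and 206 CPM, against 154 and 144 CPM in MYC controls. All 3 livers were above their controls, and the difference was not past the threshold (log2 fold change 0.46 ± 0.23, adjusted p = 0.195), though it passed with total-count scaling. The MYC effect minus that of 4 weeks of YAP was 1.89 ± 0.33 (adjusted p = 0.0077), a call lost in 1 of 16 alternatives, without MYC control replicate 2 (adjusted p = 0.0544). Aldh4a1, on chromosome 4, 139622866 to 139649690, had 43.6 and 30.1 CPM at 2 weeks of YAP, 28.9, 45.5 and 33.8 CPM at 4 weeks and 117 and 118 CPM in YAP controls. Aldh4a1 fell by 1.67 ± 0.30 on the log2 scale at 2 weeks (adjusted p = 0.0025) and fell by 1.70 ± 0.27 at 4 weeks (adjusted p = 0.000903). With MYC it had 167, 92.4 and 144 CPM in MYC livers and 173 and 136 CPM in MYC controls (log2 fold change -0.21 ± 0.27, adjusted p = 0.643). Its MYC and control livers overlapped, and the effects differed between the models by 1.5 ± 0.38 (adjusted p = 0.038). That difference was lost in 9 of 16 alternatives, total-count scaling, the replicate block and 7 that leave out 1 library, with an adjusted p of up to 0.18. Aldh4a1 shares 32.5% of its exon bases with the gene model Gm21969 on its own strand, so its counts are uncertain.

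Prodh itself did not pass in any comparison with all livers. It had 108 and 46.9 CPM at 2 weeks of YAP, 86.96, 31.5 and 43.4 CPM at 4 weeks and 162 and 182 CPM in YAP controls (adjusted p = 0.345 and 0.12). In the MYC model it had 72.3, 10.4 and 14.5 CPM in MYC livers and 88.2 and 95.6 CPM in MYC controls (adjusted p = 0.21). All induced livers were below controls in both models, and without MYC replicate 1 its log2 fold change with MYC was -2.88, adjusted p = 0.00481. In MYC replicates 2 and 3, Prodh was thus far below controls while Prodh2 was above them.

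Of the 6 branched-chain genes, 1 fell at 2 weeks of YAP, 4 at 4 weeks and 1 with MYC. Beside the 12.7%, 15.7% and 8.56% of all genes that fell, 1 call among 6 genes says little about the pathway. BCKDHA and BCKDHB form the decarboxylase and DBT the core of the branched-chain ketoacid dehydrogenase, IVD acts next on the leucine chain, and MCCC1 and MCCC2 are the subunits of methylcrotonyl-CoA carboxylase. Bckdha had 55.7 and 32.1 CPM at 2 weeks of YAP, 33.2, 30.3 and 24.97 CPM at 4 weeks and 59.8 and 70.3 CPM in YAP controls. It fell at 4 weeks (log2 fold change -1.14 ± 0.28, adjusted p = 0.00985), a call lost in 2 of 11 alternatives, while 61.7% of its exon bases overlap B3gnt8. Bckdhb, its partner, had 36.5 and 21.2 CPM at 2 weeks of YAP, 30.9, 34.9 and 33.8 CPM at 4 weeks and 49.4 and 49.2 CPM in YAP controls and did not pass (adjusted p = 0.15 and 0.217). With MYC Bckdhb fell, with 54.9, 23.4 and 24.3 CPM in MYC livers and 84.8 and 77.3 CPM in MYC controls (log2 fold change -1.24 ± 0.34, adjusted p = 0.0275). This call was lost in 6 of 11 alternatives, with no filter, with the compared groups alone and in 4 that leave out 1 library. Bckdha, at 57.5, 34.2 and 32.2 CPM in MYC livers and 67 and 56.6 CPM in MYC controls, did not pass (adjusted p = 0.174). Neither difference between the models passed for this pair (adjusted p = 0.424 for Bckdha and 0.431 for Bckdhb). Without MYC replicate 1 both fell, Bckdha by 0.90 and Bckdhb by 1.76 (log2, adjusted p = 0.0247 and 0.000551).

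Mccc1 fell at both YAP times, with 20.8 and 17.5 CPM at 2 weeks of YAP, 20.4, 17.3 and 20.2 CPM at 4 weeks and 38.5 and 36.6 CPM in YAP controls. Mccc1 fell by 0.97 ± 0.21 on the log2 scale at 2 weeks (adjusted p = 0.00582) and fell by 0.96 ± 0.19 at 4 weeks (adjusted p = 0.00287). Under total-count scaling neither call held (adjusted p = 0.148 and 0.385), and the 2-week call was lost without replicate 2 (adjusted p = 0.0601). Mccc2, the other subunit, had 143 and 89.5 CPM at 2 weeks of YAP, 162, 50.2 and 50.7 CPM at 4 weeks and 78.1 and 77.8 CPM in YAP controls. Its livers were above both controls at 2 weeks and on both sides of them at 4 weeks, with adjusted p = 0.433 and 0.804. At 4 weeks its log2 fold change was 0.17 with all livers and -0.63 without replicate 1 (adjusted p = 0.0514). With MYC, Mccc1 had 26.9, 20.3 and 28.4 CPM in MYC livers and 25.6 and 32.2 CPM in MYC controls. Mccc2 had 95.2, 64.7 and 72.6 CPM in MYC livers and 82.7 and 78.7 CPM in MYC controls, and both overlapped their controls. Dbt and Ivd fell at 4 weeks by 0.94 and 0.99 on the log2 scale (adjusted p = 0.03 and 0.0127), calls that total-count scaling removed (adjusted p = 0.425 and 0.337). Aass, which starts lysine breakdown, fell at 4 weeks (log2 fold change -1.23 ± 0.39, adjusted p = 0.0321), a call lost in 6 of 11 alternatives. It had log2 fold changes of -0.81 at 2 weeks and -0.95 with MYC that did not pass. Without MYC replicate 1, Dbt and Aass fell with MYC (log2 fold change -0.92, adjusted p = 0.0229 for Dbt and -1.44, adjusted p = 0.0115 for Aass).

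Among the aminotransferases, Gpt2 rose at 2 weeks of YAP and the others were below controls. GPT and GPT2 exchange the amino group between alanine and glutamate in the cytosol and in mitochondria, GOT1 does so for aspartate in the cytosol, and AGXT removes glyoxylate in peroxisomes. Gpt2, on chromosome 8, 85492576 to 85527560, had 1774 and 992 CPM at 2 weeks of YAP, 1552, 443 and 646 CPM at 4 weeks and 410.1 and 539 CPM in YAP controls. The rise at 2 weeks (log2 fold change 1.54 ± 0.53, adjusted p = 0.0496) was just past the threshold and was lost in 6 of 9 alternatives, and the livers at 4 weeks overlapped their controls (adjusted p = 0.176). The 2-week livers had the high muscle marker sums. At 4 weeks, replicates 1, 2 and 3 had muscle marker sums of 4.64, 6.60 and 23.2 CPM beside 1552, 443 and 646 CPM of Gpt2. Whether muscle RNA had a part in the level of Gpt2 was not tested. In MYC livers Gpt2 had 168, 112 and 195 CPM, against 364 and 373 CPM in MYC controls. All 3 were below the controls, without passing (log2 fold change -1.22 ± 0.46, adjusted p = 0.0925). The effects of MYC and of 4 weeks of YAP on Gpt2 differed by -2.11, which did not pass (adjusted p = 0.0833).

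Gpt, in contrast, had 125 and 32.7 CPM at 2 weeks of YAP, 42.4, 63.95 and 43.99 CPM at 4 weeks and 154 and 172 CPM in YAP controls. In the MYC model it had 111, 23.1 and 40.7 CPM in MYC livers and 135 and 125 CPM in MYC controls. All induced livers were below controls for Gpt, yet it passed in no comparison with all livers (adjusted p = 0.308, 0.0688 and 0.249). It fell with MYC once MYC replicate 1 was left out (log2 fold change -2.02, adjusted p = 0.0269). Agxt and Got1 fell at 4 weeks of YAP, by 2.11 and 1.43 on the log2 scale (adjusted p = 0.0381 and 0.0264), and each of these calls was lost in 7 of 11 alternatives, 4-week replicate 1 left out among them (adjusted p = 0.0693 and 0.0734). With MYC, Agxt had 129, 38 and 21.8 CPM in MYC livers and 227 and 212 CPM in MYC controls (adjusted p = 0.0936), and its level in MYC replicate 1 was again the highest of the group. Without that liver Agxt fell with MYC (log2 fold change -2.88, adjusted p = 0.0035).

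**Figure D3:**
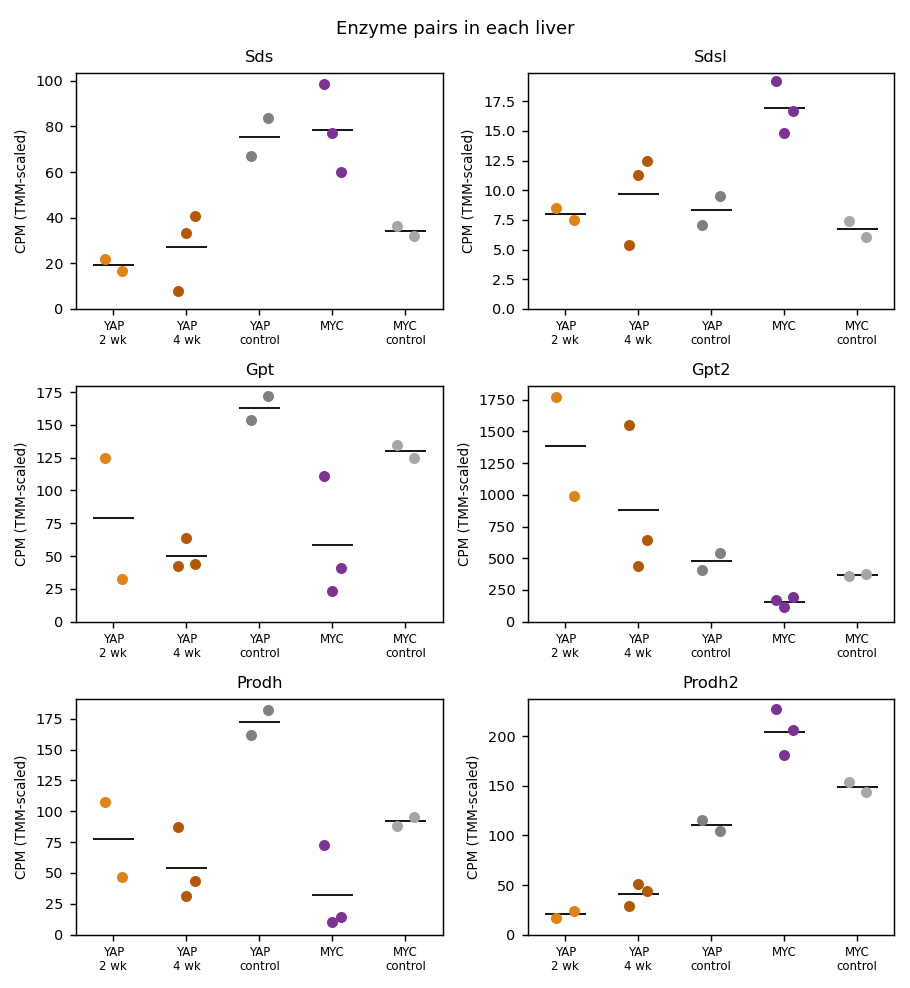
Level in each liver (y axis, TMM-scaled CPM; points are livers and lines are group means) of 3 pairs of enzymes, Sds and Sdsl, Gpt and Gpt2, and Prodh and Prodh2, in 2 weeks of YAP, 4 weeks of YAP, YAP controls, MYC and MYC controls. Gpt2 at 2 weeks lies at 1774 and 992 CPM, above both YAP controls, while Gpt lies below them, and Prodh2 is below controls under YAP and above them with MYC.

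For methionine and cysteine, 1 of 5 genes fell at 2 weeks of YAP, 3 at 4 weeks and 1 with MYC. Beside the 12.7%, 15.7% and 8.56% of all genes that fell, 1 call among 5 genes says little about the pathway. MAT1A makes S-adenosylmethionine, GNMT spends it on glycine, BHMT turns homocysteine back into methionine, and CBS and CTH carry it on to cysteine. Cbs, on chromosome 17, 31608894 to 31637238, fell in all 3 comparisons. It had 139 and 79.9 CPM at 2 weeks of YAP, 98.01, 77.9 and 80.7 CPM at 4 weeks and 362 and 382 CPM in YAP controls. Cbs fell by 1.76 ± 0.31 on the log2 scale at 2 weeks (adjusted p = 0.00206) and fell by 2.12 ± 0.27 at 4 weeks (adjusted p = 0.000301). With MYC it had 169, 93.3 and 119 CPM in MYC livers and 286 and 338 CPM in MYC controls (log2 fold change -1.30 ± 0.27, adjusted p = 0.00878). No induced liver of either model reached its controls. Both YAP calls of Cbs held under every alternative, and the MYC call was lost without MYC control replicate 2 (adjusted p = 0.0781).

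Cth, the next step, had 164 and 61.8 CPM at 2 weeks of YAP, 85.1, 70.3 and 53.7 CPM at 4 weeks and 211 and 279 CPM in YAP controls. It fell at 4 weeks (log2 fold change -1.81 ± 0.44, adjusted p = 0.0114), a call lost in 2 of 11 alternatives. Its MYC livers overlapped controls, at 76.1, 39.8 and 29.2 CPM in MYC livers and 58.9 and 61.4 CPM in MYC controls (adjusted p = 0.677). Gnmt averaged 318 ± 244 CPM at 2 weeks (SD, n = 2), 219 ± 55.8 CPM at 4 weeks (n = 3) and 1033 ± 32.2 CPM in YAP controls (n = 2), and fell at 4 weeks (adjusted p = 0.0164), a call lost in 5 of 11 alternatives, 4-week replicate 1 left out among them (adjusted p = 0.0508). Bhmt had 2544 and 757 CPM at 2 weeks of YAP, 1865, 288 and 317 CPM at 4 weeks and 1686 and 2024 CPM in YAP controls, so that its livers overlapped controls at both times. In the MYC model Bhmt had 484, 378 and 498 CPM in MYC livers and 1322 and 1162 CPM in MYC controls, without overlap (log2 fold change -1.45 ± 0.75, adjusted p = 0.212). A close copy, Bhmt2, could share its reads. Mat1a had 2686 and 1287 CPM at 2 weeks of YAP, 1371, 894 and 895 CPM at 4 weeks and 1448 and 1588 CPM in YAP controls. In the MYC model it had 2227, 804 and 667 CPM in MYC livers and 1542 and 1880.0 CPM in MYC controls, overlapping the controls. Bhmt and Mat1a passed in no comparison with all livers. Without MYC replicate 1, Mat1a and Gnmt fell with MYC (log2 fold change -1.22, adjusted p = 0.0296 for Mat1a and -1.55, adjusted p = 0.0351 for Gnmt), and without 4-week YAP replicate 1, Bhmt fell with YAP (log2 fold change -2.62, adjusted p = 0.00148).

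Many calls with MYC changed without MYC replicate 1, the library that stood apart. This liver was singled out partly because it had the highest level of its group for 33 of these 38 genes. Leaving it out therefore lowers their MYC mean in any case, so the added falls are no separate evidence. The 5 members that fell with all livers (Fah, Kmo, Kynu, Bckdhb and Cbs) fell without this liver as well. Another 15 passed, among them Tat, Tdo2, Prodh, Agxt, Gpt and Hal. Sdsl remained the 1 member that rose. Sds and Prodh2 stayed above controls and did not pass (log2 fold change 1.01, adjusted p = 0.256 for Sds and 0.38, adjusted p = 0.309 for Prodh2). Leaving out MYC replicate 2 or 3 instead left 2 and 3 members that fell, where 3.76% and 5.29% of all genes fell, and leaving out MYC control replicate 1 or 2 left 2 and 1, where 2.09% and 2.2% of all genes fell.

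**Figure D4:**
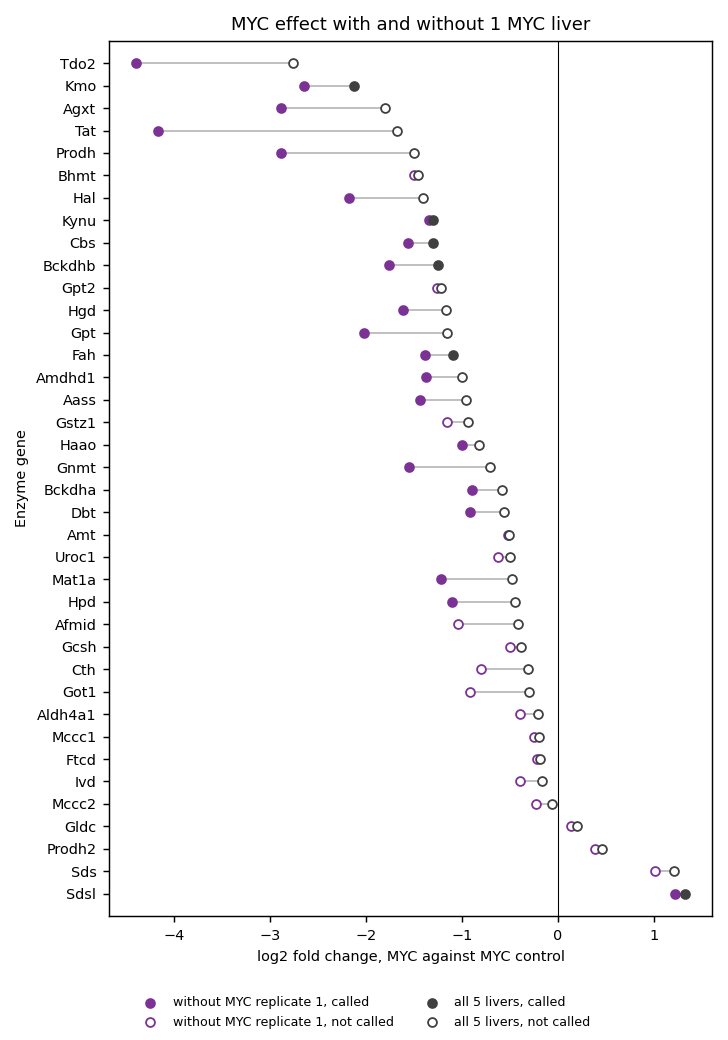
Log2 fold change of each enzyme gene (y axis) in MYC livers against MYC controls (x axis), with all 5 livers (grey) and without MYC replicate 1 (purple); filled points passed an adjusted p of 0.05, and a line joins the 2 values of a gene. Without that liver 20 genes pass below 0 in place of 5, and Tat moves the farthest. Sds, Sdsl, Prodh2 and Gldc stay above 0. That liver had the highest level of its group for 33 of the 38 genes, so leaving it out lowers their MYC mean in any case.

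Between 4 and 2 weeks of YAP, 0 of the 38 enzymes passed in either direction in edgeR, where 0.0612% of all genes did, all of them lower. At an unadjusted p under 0.05 there was 1 member, Prodh2, higher at 4 weeks, and DESeq2 called 1, Prodh2, where 0.0949% of all genes were higher and 0.357% lower. Prodh2 had 28.3, 50.5 and 44.1 CPM at 4 weeks, against 17.1 and 23.7 CPM at 2 weeks (log2 fold change 1.00 ± 0.24, adjusted p = 0.356). It was the 1 member whose livers at the 2 times did not overlap, compared with 20.9% of all genes. Without 4-week YAP replicate 1, 1 member was higher and 3 were lower at 4 weeks, where 1.09% of all genes were higher and 1.72% lower.

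The effect of MYC was compared with that of 4 weeks of YAP, each against its own controls, as a difference of log2 fold changes. In this comparison 3 members were higher, so their change with MYC was less negative than with YAP or positive, and 0 were lower. Among all genes 3.15% were higher and 4.33% lower (7.48% either way). Beside that count of 0 in edgeR, 1 member (Gpt2) was lower at an unadjusted p under 0.05 and 4 were higher and 1 was lower in DESeq2, where 6.57% and 7.56% of all genes were. The 3 were Prodh2, Aldh4a1 and Haao, of which Haao differed by 1.44 ± 0.39 (adjusted p = 0.0465). For Haao this was lost in 9 of 16 alternatives, MYC replicate 1 left out among them, with an adjusted p of up to 0.16. Sds had the largest difference of all members, 2.67 ± 0.75, and missed the threshold (adjusted p = 0.0612). The members lowered at 4 weeks of YAP and with MYC shared 4 genes, Cbs, Fah, Kmo and Kynu, which are 16.7% of the 24 and 80% of the 5. Since 24 of all 38 members were lowered at 4 weeks of YAP, a large share of any few members would be among them. This overlap was not tested, and that over all genes was not counted. Without MYC replicate 1, 1 member was higher and 2 were lower in this comparison, where 3.64% and 5.65% of all genes were. Without 4-week YAP replicate 1, 6 were higher and 0 lower, where 4.48% and 5.98% of all genes were. With total-count scaling 1 was higher and 1 lower, where 1.5% and 7.01% of all genes were.

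Other genes of amino acid breakdown fell too. Of a list of 47, 45 were found and 44 tested: 25 fell and 1 rose at 2 weeks of YAP, 36 passed at 4 weeks, all of them lower, and 6 fell and 2 rose with MYC. Over all genes 12.7%, 15.7% and 8.56% fell. The list's median log2 fold changes were -1.23, -1.49 and -0.63. The effects of MYC and 4 weeks of YAP differed for 7 of the 44, all of them higher, where 3.15% of all genes were higher. Qdpr, dihydropteridine reductase, which regenerates tetrahydrobiopterin, had 17.6 and 11.96 CPM at 2 weeks of YAP, 15.4, 20.5 and 14.1 CPM at 4 weeks and 70.4 and 102 CPM in YAP controls. Qdpr fell by 2.55 ± 0.28 on the log2 scale at 2 weeks (adjusted p = 0.000175) and fell by 2.38 ± 0.24 at 4 weeks (adjusted p = 8.07e-05). Qdpr was lower in all YAP-induced livers than in either control. Its MYC effect minus that of 4 weeks of YAP was 1.72 (adjusted p = 0.0142).

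Hibch of valine breakdown fell by 2.00 and 1.95 on the log2 scale at 2 and 4 weeks (adjusted p = 0.000264 and 0.000119), and Mpst of cysteine breakdown by 1.65 and 1.82 (adjusted p = 0.000408 and 9.22e-05). With MYC, Hibch had a log2 fold change of -0.04 (adjusted p = 0.932), and its difference between the models was 1.91 (adjusted p = 0.00462). Acadsb, Mpst and Pccb, of isoleucine, cysteine and propionate breakdown, fell with MYC by 1.17, 0.86 and 1.05 (log2, adjusted p = 0.00508, 0.0102 and 0.017). Of the 2 that rose with MYC, Bckdk is the kinase that switches off the branched-chain dehydrogenase, and Mtr is methionine synthase. Neither breaks down amino acids, and nor does Qdpr, which fell at both YAP times. Bckdk had 28.8, 35.5 and 26.99 CPM in MYC livers and 14.8 and 16.6 CPM in MYC controls (log2 fold change 0.95 ± 0.17, adjusted p = 0.0045). Mtr had 16.2, 21.9 and 22.2 CPM in MYC livers and 9.72 and 11.6 CPM in MYC controls (adjusted p = 0.0182). It was also the 1 gene of the list that rose at 2 weeks of YAP, with 22.9 and 21.6 CPM, against 11.9 and 13.4 CPM in YAP controls (adjusted p = 0.0271).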

How the data were processed

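Total RNA of 12 livers was sequenced, and the deposited files hold raw read counts per gene symbol, 1 table per liver. Per the submitters' processing notes, Trim Galore 0.4.1, HISAT2 2.1.0, featureCounts 1.6.3 and DESeq2 1.20.0 were used with the genome build GRCm38 (mm10). Which annotation and strand setting were used, and how multiply mapped reads were counted, is not given in the sources used here. Libraries were made with a Nugen Ovation kit, per the labels' protocols.

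The 38 members and the gene lists were chosen with earlier results of these data known. The test was edgeR 4.0.16 under R 4.3.3 (filterByExpr, TMM scaling, quasi-likelihood fit with robust dispersion, 1 mean per group over all 12 libraries). The fit kept 17964 genes and had 7 residual degrees of freedom and a biological coefficient of variation of 31.5%. Tests were two-sided, with Benjamini-Hochberg adjustment over all tested genes, and a call is an adjusted p under 0.05. The 5 comparisons were each YAP time and MYC against their controls, 4 against 2 weeks of YAP, and the MYC effect minus the 4-week YAP effect. Replicates were no repeats of 1 library: over their 9 pairs, chi-square divided by its degrees of freedom was 10.2 to 109. The deposited counts were also fitted with total-count scaling, with no filter, with the compared groups alone, with DESeq2 1.42.0, with a replicate block and without each library in turn. The procedure was tested on simulated data.

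Values of every liver are given for the called members with the 6 smallest p each way in a comparison with controls, for members called against the majority, and for 5 pairs of related enzymes; other members are given where they complete a pathway. From the list of other enzymes, up to 3 called genes each way per comparison with controls are named, and 1 further gene that the rule names is not reported here. Marker sums are of TMM-scaled CPM.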

Additional observations from a re-analysis of the deposited data

Results flagged for a closer look

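The effects of MYC and of 4 weeks of YAP, each against its own controls, differed for 3 enzymes in edgeR's test of the difference itself. For Prodh2 the MYC effect minus the YAP effect was 1.89 on the log2 scale (adjusted p = 0.0077), with all 3 MYC livers above and all 3 YAP livers below their controls. For Aldh4a1 it was 1.5 (adjusted p = 0.038), and for Haao 1.44 (adjusted p = 0.0465). The Prodh2 difference was lost in 1 of 16 alternatives, without MYC control replicate 2 (adjusted p = 0.0544). Those of Aldh4a1 and Haao were each lost in 9 of 16, total-count scaling and the replicate block included.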

How the results depend on the processing

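Calls that held in every alternative were 6 of 13 at 2 weeks of YAP (Hgd, Haao, Prodh2, Aldh4a1, Amdhd1 and Cbs), 8 of 24 at 4 weeks (Hgd, Kmo, Haao, Amt, Aldh4a1, Hal, Amdhd1 and Cbs), 1 of 6 with MYC (Kmo) and 0 of 3 for the difference between the models. The cause of the changes that follow was not tested. With total-count scaling 2 members rose in each comparison with controls, 11 fell at 4 weeks, 3 of all genes passed between 4 and 2 weeks, and the difference between the models gave 1 member higher and 1 lower. With no filter 0 members rose at 2 weeks, and between the times 1 member was higher and 42 genes passed. With the compared groups alone 2 members rose and 20 fell at 2 weeks, where 17.8% of all genes rose and 16.5% fell. In these fits 2 rose with MYC, where 11.1% of all genes rose, and 0 genes passed between the times. DESeq2 gave 11 members that fell with MYC, where 10.7% of all genes fell. It also gave 1 member higher and 81 genes between the times, and 1 lower and 2482 genes for the difference. Leaving out 4-week YAP replicate 1 and MYC replicate 1 together was chosen after seeing the data. With MYC it gave 26 that fell, 2 that rose and 5326 genes called either way. For the difference it gave 6 higher, 2 lower and 2630 genes either way. The share of all genes in each direction was not counted for this setting.

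With 1 library left out, members that fell ranged from 6 to 15 at 2 weeks, 11 to 24 at 4 weeks and 1 to 20 with MYC. Members that rose were 0 at either YAP time and 0 to 1 with MYC. All genes called ranged from 2445 to 3671, 3324 to 6231 and 792 to 4192. Between the times the ranges were 0 to 1 higher, 0 to 3 lower and 1 to 501 genes, and for the difference 0 to 6 higher, 0 to 2 lower and 338 to 1868 genes.

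Signs turned only for members that had not passed with all livers in the main fit. Total-count scaling turned Sdsl (0.47) and Bhmt (0.29) at 2 weeks, Gldc (0.66), Bckdhb (0.17) and Mat1a (0.19) at 4 weeks, and with MYC Gcsh (0.021), Aldh4a1 (0.19), Ftcd (0.23), Ivd (0.23), Mccc1 (0.21), Mccc2 (0.34), Got1 (0.044) and Cth (0.045). Leaving out both libraries together turned Afmid (-0.13) and Mccc2 (-0.63) at 4 weeks, and Mccc2 then passed as lower (adjusted p = 0.0238). With 1 library left out, members whose sign turned ranged from -0.252 to 0.177 (Sdsl), -0.223 to 0.828 (Mat1a) and -1.28 to 0.46 (Bhmt) at 2 weeks, from -0.128 to 0.804 (Afmid), -0.673 to 0.34 (Gldc) and -0.626 to 0.449 (Mccc2) at 4 weeks, and from -0.391 to 0.00645 (Aldh4a1), -0.39 to 0.0109 (Ivd) and -0.232 to 0.0587 (Mccc2) with MYC.

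Replicate numbers are shared between groups, and the deviations of the 21 same-numbered pairs of libraries correlated between -0.14 and 0.172, with 3 above 0.1. In groups of 2 the deviations mirror each other, so these pairs are not independent. Differently numbered pairs were not set beside them, so these values cannot decide whether the numbers pair the livers. With the replicate block 0 members rose and 18 fell at 2 weeks, where 4894 of all genes passed either way. In that fit 7 members fell with MYC, where 2636 genes passed either way, and Mccc2 turned to 0.078 with MYC.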
